A study of Mus musculus with 6 samples.

Results

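Transcripts of 10 CC chemokine genes were examined in the colorectal tissue of colitis mice that received berberine (BBR) or sulfasalazine (SASP). The genes were taken by symbol, and all 10 were present among the 18268 genes of the expression table. They were Ccl2, Ccl3, Ccl4, Ccl5, Ccl7, Ccl8, Ccl11, Ccl20, Ccl25 and Ccl28. All 6 mice were adult male C57BL/6 animals with colitis from 7 days of dextran sulfate sodium (DSS), a polymer that damages the colonic epithelium. BBR, a plant alkaloid, was given by gavage for 6 days to 3 mice, and SASP, an aminosalicylate prodrug used against colitis, was given for the same time to the other 3. The labels name no engineered allele. Healthy mice and mice with untreated colitis were not analysed here, so each difference below is between the drugs.

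CC chemokines are small secreted proteins that carry a pair of neighbouring cysteines near the start of the mature chain and steer leukocytes through G protein-coupled Ccr receptors. In the inflamed gut, Ccl2, Ccl7 and Ccl8 draw monocytes out of the blood, Ccl3, Ccl4 and Ccl5 act on macrophages, T cells and NK cells, and Ccl11 (eotaxin) draws eosinophils. Ccl20, Ccl25 and Ccl28 are made by the epithelium and attract cells with Ccr6, Ccr9 and Ccr10, among them IgA-producing plasma cells in the case of Ccl28.

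The feature that names the family is shown here in the coding strand of each gene, because it also shows how different the transcripts are around a shared site. Capitals mark the codons of the neighbouring cysteines, with 18 bases of coding sequence on each side. The sequences come from GENCODE M21, and the positions are those of the capitals in the mouse assembly GRCm38, which is not the build of the expression table.
Ccl2, chr11:82036506-82036511, plus strand, exon 2: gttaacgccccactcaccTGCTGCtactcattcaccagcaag
Ccl3, chr11:83648652-83648657, minus strand, exon 2: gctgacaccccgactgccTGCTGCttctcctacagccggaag
Ccl4, chr11:83663482-83663487, plus strand, exon 2: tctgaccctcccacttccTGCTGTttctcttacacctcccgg
Ccl5, chr11:83529242-83529247, minus strand, exon 2: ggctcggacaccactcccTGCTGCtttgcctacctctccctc
Ccl7, chr11:82046538-82046543, plus strand, exon 2: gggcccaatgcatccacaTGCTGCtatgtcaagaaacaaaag
Ccl8, chr11:82116056-82116061, plus strand, exon 2: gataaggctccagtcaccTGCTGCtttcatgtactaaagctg
Ccl11, chr11:82061696-82061701, plus strand, exon 2: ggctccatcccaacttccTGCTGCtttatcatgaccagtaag
Ccl20, chr1:83117813-83117818, plus strand, exon 2: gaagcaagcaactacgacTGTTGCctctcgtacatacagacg
Ccl25, chr8:4353897-4353902, plus strand, exon 3: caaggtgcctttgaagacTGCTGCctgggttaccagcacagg
Ccl28, chr13:119645892-119645897, plus strand, exon 2: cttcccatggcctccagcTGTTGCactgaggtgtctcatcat
Each coding sequence held 1 such pair of in-frame codons. Of the 10 pairs, 8 were written TGCTGC or TGCTGT, and those of Ccl20 and Ccl28 began with TGT. Ccl2, Ccl7, Ccl11 and Ccl8 lie in this order on the plus strand of chromosome 11, where Ccl5, Ccl3 and Ccl4 form a second cluster. Coding sequences were most alike between Ccl3 and Ccl4 (68.1% identity, gaps counted as differences), Ccl7 and Ccl11 (66.3%) and Ccl7 and Ccl8 (64.7%). Reads of 50 bases could still tell the genes apart, as 0 stretches of that length in the longest coding transcript were shared with another gene for 9 of the 10 members. For Ccl28, 0.271% of the stretches were shared.

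Values are FPKM, fragments per kilobase of transcript relative to all mapped reads of a sample, which allow levels of different genes to be compared per length. Per sample, 11518 to 12307 genes reached 1 FPKM, and the estimated depth was 17400000 to 17700000 reads in BBR and 18200000 to 19300000 reads in SASP mice. Replicates are separate labelled samples, so the spread is that between these samples. BBR mouse 3 stood apart from its group, with a correlation across genes of 0.953 and 0.949 with BBR mice 1 and 2, against 0.987 between those mice. Markers of the labelled tissue were present in all samples, with Epcam, an epithelial adhesion molecule, at 833 to 1101 FPKM. The carbonic anhydrase Car1, a colonocyte marker, reached 1200 to 2345 FPKM in BBR but 71.8 to 853 FPKM in SASP mice. It did not pass the threshold of the comparison below (limma adjusted p = 0.095), nor did any other of 7 colonocyte markers. BBR minus SASP, 5 of the 7 had differences above 0 and 2 below, with a median of 0.20.

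**Figure D1:**
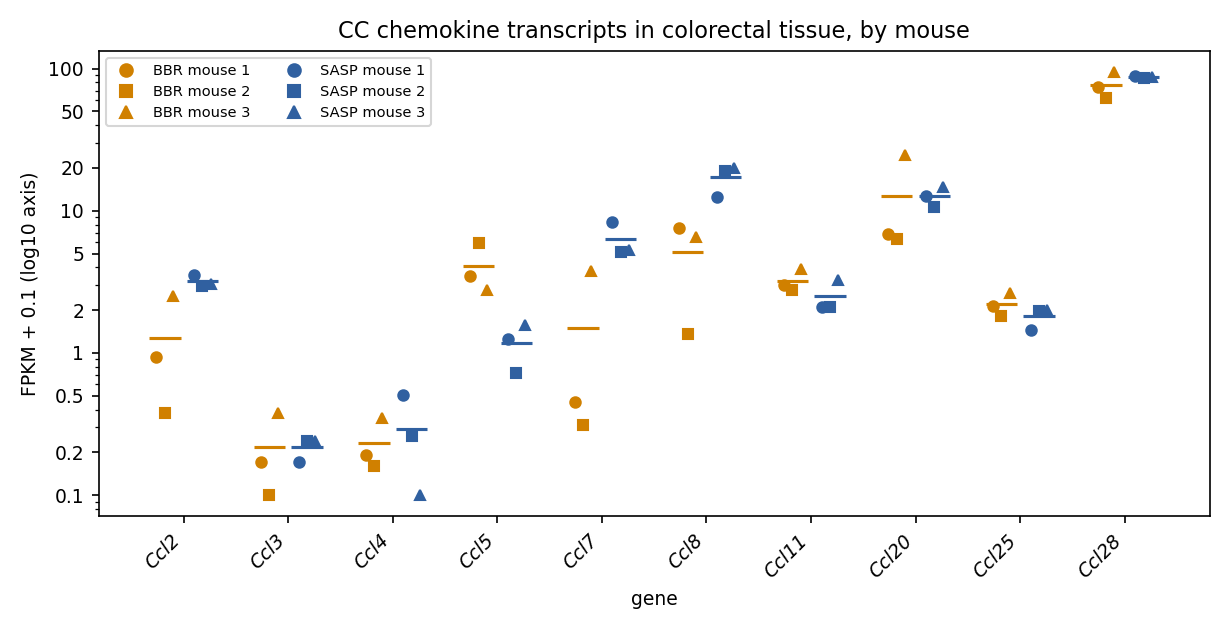
Transcript level of each CC chemokine gene in each mouse, as FPKM + 0.1 on a log10 axis, with BBR mice in orange, SASP mice in blue, a symbol for each mouse and a bar at the group mean. The 3 SASP values of Ccl2, Ccl7 and Ccl8 lie above the 3 BBR values, those of Ccl5 lie below them, and Ccl28 is the most abundant member in each mouse.

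Ccl28 was the most abundant member in each mouse, at 77.1 ± 16.4 FPKM under BBR against 87.1 ± 1.71 FPKM under SASP (mean ± SD, n = 3). In SASP mice Ccl8 (17.2 FPKM) and Ccl20 (12.6 FPKM) followed, with overlapping values, and then Ccl7 (6.18 FPKM), Ccl2 (3.08 FPKM), Ccl11 (2.40 FPKM), Ccl25 (1.71 FPKM) and Ccl5 (1.08 FPKM). Of the latter 5, Ccl2 overlapped Ccl11, and Ccl25 overlapped Ccl5. In BBR mice the order was Ccl20 (12.6 FPKM), Ccl8 (5.03 FPKM), Ccl5 (3.98 FPKM), Ccl11 (3.12 FPKM), Ccl25 (2.10 FPKM), Ccl7 (1.40 FPKM) and Ccl2 (1.17 FPKM), and all neighbours overlapped except Ccl11 and Ccl25. Ccl4 and Ccl3 came last in both groups, with overlapping values under 0.5 FPKM.

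To compare the drugs, genes with at least 1 FPKM in at least 3 samples were tested on the log2(FPKM + 1) scale, with adjustment over all 12072 genes tested. Of the 10 members, 8 were tested, and 1 passed an adjusted p of 0.05, Ccl5, which was higher in BBR mice. Among all genes tested, 8.86% passed, 3.82% as higher and 5.04% as lower. The groups did not overlap in 4 of the 8 members, 1 higher and 3 lower under BBR, where 37.9% of all tested genes had groups apart (21.3% higher and 16.6% lower). The median difference of the 8 members was -0.23, against 0.10 over all tested genes. It depended on single mice, at -0.08 without BBR mouse 1, 0.01 without BBR mouse 2 and -0.60 without BBR mouse 3. At an unadjusted p under 0.05, 1 member was higher and 3 were lower, beside 2224 higher and 1613 lower of all 12072 genes tested. Whatever their p-value, 7337 of all tested genes had differences above 0 and 4735 below, and direction counts of lists are to be read beside these.

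**Figure D2:**
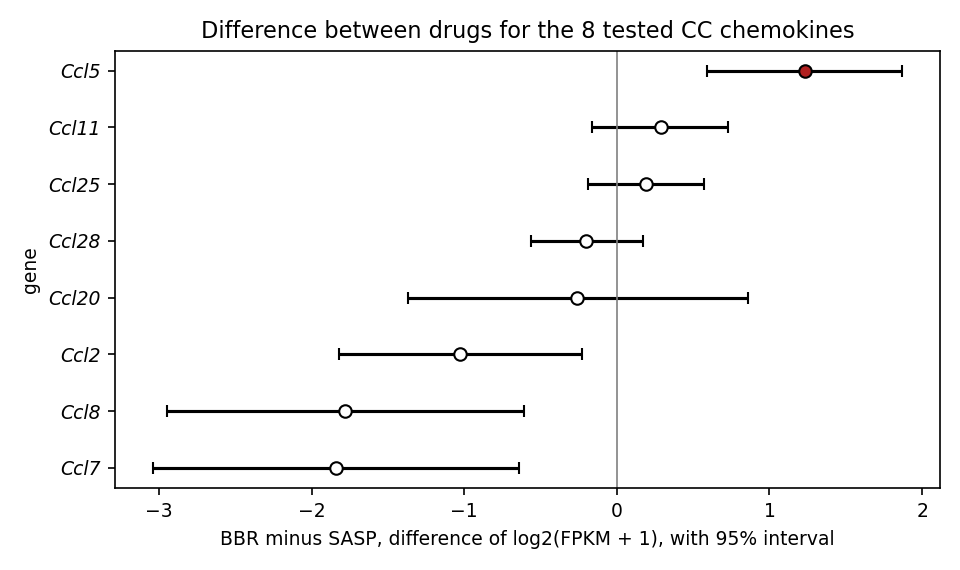
Difference between the drugs for the 8 tested CC chemokines, as BBR minus SASP on the log2(FPKM + 1) scale, with points for the estimates and bars for the 95% interval of each gene, not adjusted for the number of genes. The filled point, Ccl5 at 1.23, passed the adjusted threshold, and the open points of Ccl2, Ccl7 and Ccl8 lie between -1.84 and -1.03 with intervals below 0.

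Ccl5 (Gene ID 20304), also known as RANTES and made by T cells, NK cells and other leukocytes, rose under BBR relative to SASP. It was at 3.39, 5.88 and 2.68 FPKM in BBR mice 1, 2 and 3 and at 1.15, 0.62 and 1.47 FPKM in SASP mice 1, 2 and 3. The lowest BBR value was thus above the highest SASP value. The difference was 1.23 on the log2(FPKM + 1) scale (SE 0.27, 95% interval 0.59 to 1.87, limma adjusted p = 0.0407). These levels corresponded to about 28, 50 and 23 reads in BBR and 10, 6 and 13 reads in SASP mice, so the counting error is large. The call was lost on leaving out BBR mouse 1 (limma adjusted p = 0.0898), BBR mouse 2 (0.0823), SASP mouse 1 (0.143), SASP mouse 2 (0.1) or SASP mouse 3 (0.107), and with no filter on low values (0.0709), while the difference stayed between 0.97 and 1.42 without single mice.

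T and NK cells are sources of Ccl5. Of 11 listed markers of these cells 3 were tested, 0 passed the threshold in limma, and 0 had an unadjusted p under 0.05. Their summed level was 5.94 to 9.09 FPKM in BBR and 4.72 to 10.1 FPKM in SASP mice, so the groups overlapped. The 3 tested markers had 2 differences above 0 and 1 below, with a median of 0.07. Markers below the filter lay in both directions, with overlapping groups. Cd3e, a T cell receptor subunit, was at 0.72, 1.2 and 0.57 FPKM under BBR, against 0.67, 0.46 and 0.32 FPKM under SASP. Cd8b1, a CD8 subunit, was at 0.3, 0.48 and 0.31 FPKM under BBR, against 1.92, 0.47 and 2.0 FPKM under SASP. The natural killer receptor Ncr1 was at 0.04 to 0.15 FPKM over all mice, and 0 of the 11 markers were at 0 in any mouse. The part of these cells in the Ccl5 values was not tested.

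Ccl3 (20302) and Ccl4 (20303), macrophage inflammatory proteins, did not reach the filter. Ccl3 was listed at 0.07, 0 and 0.28 FPKM under BBR, against 0.07, 0.14 and 0.14 FPKM under SASP. With 1 read worth about 0.078 FPKM, these values correspond to 1, 0 and 4 reads in BBR and 1, 2 and 2 reads in SASP mice. Ccl4 was listed at 0.09, 0.06 and 0.25 FPKM under BBR, against 0.41, 0.16 and 0 FPKM under SASP, or at most about 5 reads. A difference between the drugs in Ccl3 or Ccl4 was not detectable at this depth.

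The monocyte chemoattractants Ccl2, Ccl7 and Ccl8 were at lower values in each BBR mouse than in any SASP mouse, but none of the 3 passed the adjusted threshold with all mice. Ccl7 (20306) was at 0.35, 0.21 and 3.65 FPKM under BBR, against 8.30, 5.07 and 5.17 FPKM under SASP. BBR mice 1 and 2 held about 5 and 3 reads of it, while BBR mouse 3 held about 48 and the SASP mice 71 to 118. The difference was -1.84 on the log2(FPKM + 1) scale (SE 0.51, 95% interval -3.04 to -0.64, limma adjusted p = 0.0654).

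Ccl2 (20296), the main ligand of the monocyte receptor Ccr2, had the same order of mice. It was at 0.84, 0.28 and 2.40 FPKM under BBR, against 3.46, 2.85 and 2.94 FPKM under SASP, a difference of -1.03 (SE 0.34, 95% interval -1.82 to -0.23, limma adjusted p = 0.0928). BBR mouse 3 was again the nearest to the SASP mice. Ccl2 and Ccl7 passed the filter through the SASP mice and BBR mouse 3 alone, so their entry into the test depended on the group where they were high.

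Ccl8 (20307) shared the lowest mouse with both, BBR mouse 2, but not the highest of the BBR mice. It was at 7.46, 1.25 and 6.39 FPKM under BBR, against 12.45, 19.02 and 20.02 FPKM under SASP, or about 60, 10 and 52 against 109, 170 and 168 reads. BBR mouse 3 lay just below BBR mouse 1, and all 3 were below the SASP mice. The difference was -1.78 (SE 0.49, 95% interval -2.95 to -0.61, limma adjusted p = 0.0661), and -1.17 without BBR mouse 2 (0.0536). Ccl12 (20293), a mouse monocyte chemoattractant of the same group that is not among the 10 genes, was at 0.98, 0.42 and 2.45 FPKM under BBR, against 1.86, 4.02 and 2.60 FPKM under SASP, with overlapping groups (-0.80, limma adjusted p = 0.169). It passed the threshold without BBR mouse 3 (-1.15, limma adjusted p = 0.0248) and with array quality weights (-0.91, 0.0021). Without BBR mouse 3 it entered the fit through the SASP mice alone, so that call is no independent sign of a difference.

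Without BBR mouse 3 the members Ccl7, Ccl2 and Ccl8 passed the threshold too, with differences of -2.46 for Ccl7 (limma adjusted p = 0.00184), -1.41 for Ccl2 (0.00553) and -2.03 for Ccl8 (0.0322). Ccl7 and Ccl2 entered that fit through the SASP mice alone, as both remaining BBR values were under 1 FPKM, so these calls are no independent sign of a difference. In that fit 6 of the 8 members passed, 5 as lower, and the share of all genes that passed was also larger, at 33.8% (22.3% as higher and 11.5% as lower). The other members were Ccl5, Ccl20 and Ccl28. Leaving out any of the other 5 mice left 0 members past the threshold in limma, beside 1.10% and 3.13% of all genes without BBR mouse 1 or 2, and 0.494%, 3.40% and 0.428% without SASP mouse 1, 2 or 3. At an unadjusted p under 0.05, each of these 5 fits had 1 member higher and 2 or 3 lower. The share of all genes at that level was not computed for the alternative fits. With array quality weights, which give less weight to samples far from their group, 6 members passed, 1 higher and 5 lower, beside 59.0% of all genes (38.4% higher and 20.6% lower). The count was 0 of 10 with no filter in limma, beside 3.33% of all genes. In that fit 1 member was higher and 3 lower at an unadjusted p under 0.05, again without a share of all genes. The count of members past the adjusted threshold was 1 with a pseudocount of 0.1 (8.06% of all genes), quantile normalization (14.4%), median-ratio scaling (14.2%) or no variance trend (8.13%).

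**Figure D3:**
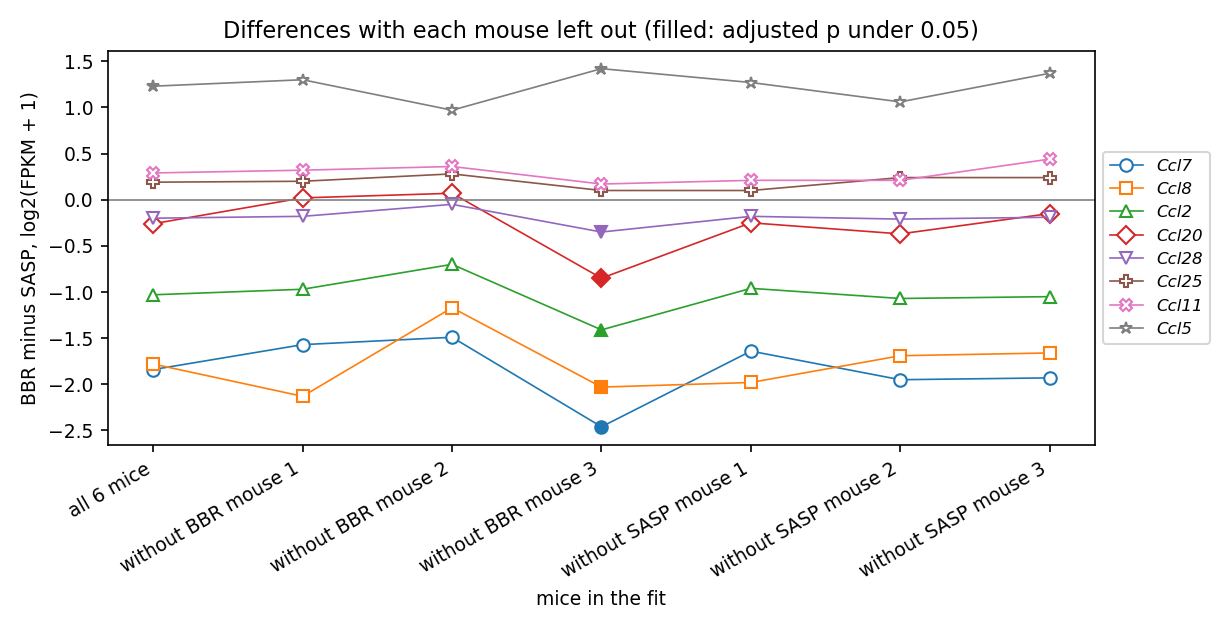
Difference between the drugs (BBR minus SASP, log2(FPKM + 1)) for the 8 tested members with all mice and with each mouse left out in turn. Filled symbols mark an adjusted p under 0.05, which 6 members reached without BBR mouse 3 and 1, Ccl5, with all mice. Ccl20 changed sign without BBR mouse 1 or 2.

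Of 14 macrophage and monocyte markers 12 were tested, 4 with differences above 0 and 8 below, 2 were called lower under BBR and 0 higher, with a median of -0.16 that became -0.38 on leaving out BBR mouse 2 and -0.03 on leaving out BBR mouse 3. The summed level was 152 to 212 FPKM under BBR against 272 to 297 FPKM under SASP, with 0 of the markers at 0 in any mouse. The called genes were Cd14, the lipopolysaccharide co-receptor (-1.85, limma adjusted p = 0.00891), and the Fc receptor Fcgr1 (-0.73, adjusted p = 0.0281). Fcgr1 was at 0.42 to 0.63 FPKM under BBR and passed the filter through the SASP mice alone. Without Cd14 and Lyz2, a split chosen after seeing the data, the other 12 markers summed to 60.2 to 99.1 FPKM under BBR against 81.9 to 94.3 FPKM under SASP, which overlap. The mannose receptor Mrc1 lay the other way, at 2.77, 3.08 and 2.63 against 1.5, 2.14 and 1.98 FPKM (0.42, adjusted p = 0.102). The call of Cd14 was lost on leaving out SASP mouse 3 (0.0536). That of Fcgr1 was lost on leaving out BBR mouse 1 (0.0883) or BBR mouse 2 (0.0571), and Fcgr1 was below the filter when any SASP mouse was left out. The general macrophage markers Csf1r and Adgre1 overlapped between the groups, at 2.88 to 5.43 against 3.68 to 3.86 FPKM and 0.94 to 2.21 against 0.82 to 2.10 FPKM. Of 7 neutrophil markers 5 were tested and 1 was lower, S100a8, a subunit of calprotectin, at 0, 0 and 6.19 FPKM under BBR, against 18.53, 20.64 and 23.14 FPKM under SASP (-3.49, adjusted p = 0.0365). S100a8 passed the filter through the SASP mice and BBR mouse 3, so its entry depended on the group where it was high. Its call was lost without any mouse other than BBR mouse 3 (0.0885 to 0.132), with a pseudocount of 0.1 (0.0642) and with no filter (0.0634). The summed level of the neutrophil markers was 192 to 567 FPKM under BBR against 357 to 536 FPKM under SASP, and 3 of the 7 were at 0 in some mouse. Most of this sum was Ly6g, at 232.14, 189.99 and 552.02 against 328.8, 505.26 and 417.24 FPKM. In BBR mice 1 and 2, where Ly6g was this high, S100a8 was at 0 and Csf3r at 0.60 and 0.58 FPKM. The sum is therefore a level of Ly6g and cannot be read as a level of neutrophils. S100a9 had groups apart, at 0.11, 0.11 and 5.25 against 6.91, 7.19 and 10.66 FPKM (-2.21, adjusted p = 0.0746), and entered the test as S100a8 did. Of the 5 tested neutrophil markers, 4 had differences below 0 and 1 above. The part of these cells in the chemokine values was not tested. In tissue RNA, fewer cells of a type and less RNA per cell cannot be told apart.

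Ccl11 (20292), which lies between Ccl7 and Ccl8 on chromosome 11, did not share their pattern. It was at 2.89, 2.67 and 3.8 FPKM under BBR, against 2.02, 2.01 and 3.16 FPKM under SASP, so the groups overlapped. The difference was 0.29 (SE 0.19, 95% interval -0.16 to 0.73, limma adjusted p = 0.321), and 0.17 to 0.44 without single mice. Its receptor Ccr3 was listed at 0 in 4 mice and at 0.02 FPKM in SASP mice 1 and 2, and the eosinophil peroxidase gene Epx at 0 in 5 mice. Of 6 listed eosinophil markers 0 passed the filter, with summed levels of 1.12 to 1.77 FPKM in BBR and 1.48 to 1.81 FPKM in SASP mice. Fibroblasts are a known source of Ccl11, and 4 of 9 fibroblast markers were called higher under BBR, with 0 lower and a median difference of 0.84. They were Lum (1.32), Col1a1 (0.95), Col3a1 (0.85) and Thy1 (0.84), with limma adjusted p-values of 0.0399 to 0.0481, and all 4 calls were lost with no filter (0.0647 to 0.0776) and on leaving out BBR mouse 1, BBR mouse 2, SASP mouse 1 or SASP mouse 3 (0.0685 to 0.151). The call of Thy1 was also lost on leaving out SASP mouse 2 (0.0878) and with quantile normalization (0.0507), and that of Col1a1 with a pseudocount of 0.1 (0.0515) and with no variance trend (0.0528). The summed level of the fibroblast markers was 315 to 420 FPKM in BBR and 140 to 247 FPKM in SASP mice, and their part in the Ccl11 values was not tested.

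Of the epithelial members, Ccl20 (20297), the ligand of Ccr6, had equal group means but unequal spread. It was at 6.71, 6.22 and 24.75 FPKM under BBR, against 12.62, 10.54 and 14.51 FPKM under SASP. BBR mice 1 and 2 lay below all SASP mice and BBR mouse 3 above them. Read counts were high enough to measure this spread, with about 160, 151 and 593 reads in BBR and 278 to 361 reads in SASP mice. The difference was -0.26 with a wide 95% interval of -1.37 to 0.86 (limma adjusted p = 0.730). It was -0.85 without BBR mouse 3, and passed the threshold there (0.00911), but 0.02 and 0.07 without BBR mouse 1 or 2.

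Ccl28 (56838), a mucosal chemokine for Ccr10-bearing plasma cells, was at 74.47, 62.15 and 94.66 FPKM under BBR, against 88.56, 85.24 and 87.64 FPKM under SASP. The SASP values lay within the range of the BBR values. The difference was -0.20 (SE 0.16, 95% interval -0.56 to 0.17, limma adjusted p = 0.410), resting on about 4060 to 6178 reads per mouse. Without BBR mouse 3 it was -0.35 and passed the threshold (0.0363), and without BBR mouse 2 it was -0.05 (0.841). The plasma cell gene Jchain, which links IgA chains, was at 88.74, 122.5 and 22.1 FPKM under BBR, against 37.97, 40.66 and 11.96 FPKM under SASP, also with overlapping groups (1.2, limma adjusted p = 0.273).

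Ccl25 (20300), the ligand of the gut-homing receptor Ccr9, was at 2.05, 1.73 and 2.52 FPKM under BBR, against 1.36, 1.87 and 1.90 FPKM under SASP. The groups overlapped, and the difference was 0.19 (SE 0.16, 95% interval -0.19 to 0.57, limma adjusted p = 0.431), and 0.10 to 0.28 without single mice. Neither Ccl25 nor Ccl11 passed the threshold in any alternative fit. Of 9 epithelial markers 1 was higher and 1 lower under BBR, Krt18 (0.75, adjusted p = 0.0163) and Vil1 (-0.55, adjusted p = 0.0327), and their median difference was 0.04. Krt18 lost its call on leaving out BBR mouse 1 (0.0685), SASP mouse 1 (0.0557) or SASP mouse 3 (0.0927), and Vil1 with no filter (0.0527) and on leaving out any mouse other than BBR mouse 3 (0.0628 to 0.139).

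The other CC ligands were measured to place the 10 genes within their family. Of 14 genes, 12 were listed and 6 tested, and 0 passed the threshold in limma. At an unadjusted p under 0.05 there were 2 higher and 0 lower, beside 2224 higher and 1613 lower of all 12072 genes tested. The median of the 6 tested ligands was 0.25, but 0.06 without BBR mouse 3 and -0.11 with array quality weights. Ccl6, a myeloid chemokine of mice, had the highest level of all CC ligands, at 120.79, 128.67 and 127.7 FPKM under BBR, against 206.67, 128.59 and 175.34 FPKM under SASP (-0.41, adjusted p = 0.162). Ccl21a, a lymphatic and lymph node chemokine for Ccr7, was at 77.39, 79.8 and 73.5 FPKM under BBR, against 30.31, 44.69 and 63.06 FPKM under SASP (0.79, adjusted p = 0.0805). Its groups did not overlap, and reads of the near-identical Ccl21 copies cannot be divided with certainty. Ccl27a, a skin and epithelial chemokine for Ccr10, was at 2.35, 3.74 and 2.24 FPKM under BBR, against 0.75, 1.94 and 1.71 FPKM under SASP (0.63, adjusted p = 0.139).

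Of the 10 Ccr receptors, 2 passed the filter, and 1 was called, Ccr2, which was lower under BBR. Ccr2 (12772), the monocyte receptor for Ccl2, Ccl7 and Ccl12, was at 0.90, 0.77 and 1.10 FPKM under BBR, against 2.43, 1.71 and 2.44 FPKM under SASP, with groups apart. The difference was -0.73 (SE 0.16, limma adjusted p = 0.0390). Ccr2 passed the filter through the SASP mice and BBR mouse 3, so its entry depended on the group where it was high. The call was lost with no filter (0.0578) and on leaving out BBR mouse 1 (0.0978), BBR mouse 2 (0.107), SASP mouse 1 (0.156), SASP mouse 2 (0.0539) or SASP mouse 3 (0.15). Unlike Ccl2 and Ccl7, Ccr2 in BBR mouse 3 lay close to the other BBR mice. Ccr1, a receptor for Ccl3, Ccl5 and Ccl7, was at 1.08, 0.79 and 1.29 FPKM under BBR, against 1.34, 1.99 and 1.33 FPKM under SASP (-0.31, adjusted p = 0.245).

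The other 8 receptors were below the filter and were not tested. Ccr6, the receptor for Ccl20, was at 0.10, 0.40 and 0.09 against 1.09, 0.21 and 0.67 FPKM, with overlapping groups. Ccr9 and Ccr10, the receptors for Ccl25 and Ccl28, lay at 0.09 to 0.20 and 0.21 to 0.82 FPKM over all mice, again with overlapping groups.

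**Figure D4:**
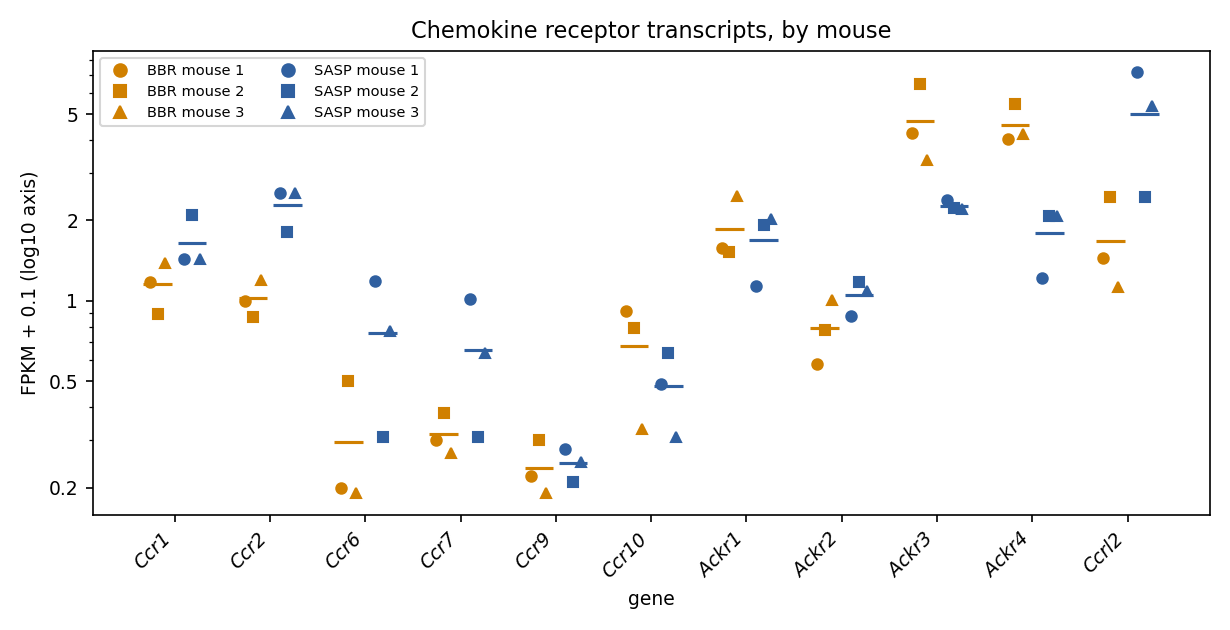
Transcript level of a selection of chemokine receptor genes in each mouse, as FPKM + 0.1 on a log10 axis, with symbols as for the ligands and bars at the group means. Ccr3, Ccr4 and Ccr8, at no more than 0.10 FPKM in any mouse, are among those left out. Ccr2 lies lower and Ackr4 higher in the 3 BBR mice than in the 3 SASP mice, and Ccr9 and Ackr1 overlap.

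Atypical receptors bind their ligands without classical signalling, and some of them remove chemokines. Of 5 such genes 4 were tested and 1 was higher, Ackr4, a scavenger of Ccl19, Ccl21 and Ccl25. Ackr4 (252837) was at 3.93, 5.35 and 4.13 FPKM under BBR, against 1.12, 1.97 and 1.98 FPKM under SASP, a difference of 1.03 (SE 0.19, limma adjusted p = 0.0260). The call was lost with no filter (0.0522) and without any mouse other than BBR mouse 3 (0.0568 to 0.0992). Ackr3, a scavenger of the CXC ligand Cxcl12, was at 4.16, 6.36 and 3.28 against 2.28, 2.12 and 2.11 FPKM, with groups apart (0.78, adjusted p = 0.0610). Ackr3 passed the threshold with median-ratio scaling (0.71, limma adjusted p = 0.0387), with array quality weights (0.77, 0.000757) and without BBR mouse 3 (0.96, 0.0114). Ccrl2, a non-signalling receptor that binds chemerin, lay the other way, at 1.35, 2.35 and 1.03 against 7.10, 2.34 and 5.25 FPKM, with overlapping groups (-1.13, adjusted p = 0.0812). It passed the threshold without SASP mouse 2 (-1.5, adjusted p = 0.0476) and with array quality weights (0.00128). Ackr2, the scavenger of inflammatory CC ligands, was below the filter, at 0.48, 0.68 and 0.91 FPKM under BBR, against 0.78, 1.08 and 0.99 FPKM under SASP.

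Of 13 listed cytokines that induce CC chemokines 7 were under 1 FPKM in all mice, 4 were tested and 1 was called, Tnf, which fell under BBR relative to SASP. It was at 1.02, 0.82 and 6.33 FPKM under BBR, against 23.02, 14.9 and 33.38 FPKM under SASP (-2.98, SE 0.56, limma adjusted p = 0.0268). As for Ccl2 and Ccl7, BBR mouse 3 had the highest of the BBR values. The call was lost with no filter (0.0509) and without any mouse other than BBR mouse 3 (0.0526 to 0.117). Il33, an alarmin of epithelium and stroma, lay the other way, at 1.21, 1.67 and 1.10 against 0.55, 0.58 and 0.87 FPKM, with groups apart (0.48, adjusted p = 0.0955). Il33 passed the filter through the BBR mice alone, so its entry depended on the group where it was high. Il1b was at 0.33, 0.89 and 3.23 FPKM under BBR, against 0.70, 1.36 and 1.36 FPKM under SASP, with overlapping groups (0.06, adjusted p = 0.934). Ifng was listed at 0 in all BBR mice and at 1.19, 0.30 and 0.21 FPKM in SASP mice, below the filter.

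Of 11 NF-kB subunits and inhibitors, which act on many chemokine promoters, 1 passed the threshold and the median difference was -0.12. Nfkb2 was higher, at 17.32, 18.83 and 17.39 FPKM under BBR, against 12.93, 13.48 and 12.77 FPKM under SASP (0.42, limma adjusted p = 0.0444). Its call was lost with no filter (0.0558), with no variance trend (0.0525) and without any mouse other than BBR mouse 3 (0.0944 to 0.172). Among 28 tested genes of chemokine signal transduction the median was 0.00 and 1 gene was called, the kinase Ptk2b (-0.50, adjusted p = 0.0496), a call lost in 8 of the alternative fits (0.0517 to 0.183). Among 8 tested peptidases and heparan sulfate genes that modify or hold chemokines, 1 was called. This was Sdc1, the heparan sulfate proteoglycan syndecan of epithelium and plasma cells, at 70.82, 64.16 and 54.91 FPKM under BBR, against 32.93, 39.42 and 33.49 FPKM under SASP (0.82, adjusted p = 0.0186). That call was lost on leaving out BBR mouse 1 (0.0685), BBR mouse 2 (0.0544), SASP mouse 1 (0.0974) or SASP mouse 3 (0.0969). Dpp4, a peptidase that trims the ends of chemokines, was at 7.72, 7.12 and 3.48 against 10.26, 12.72 and 9.45 FPKM, with groups apart (-0.78, adjusted p = 0.1).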

How the data were processed

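RNA was taken from colorectal tissue of 3 BBR and 3 SASP mice, grouped by their treatment labels. The authors filtered single-end reads of 50 bases, aligned them with Bowtie2 2.2.5 and calculated expression with RSEM 1.2.12, and the submitters' processing notes name the build mm9. The annotation is not given in the sources used here. The sequencing methods describe rectal samples and do not list the SASP mice, and the labels describe the whole colorectum. The labels name an Illumina library kit and the study's methods rRNA depletion with nanoball sequencing, and the table does not settle which was used. The deposited values are FPKM, rounded to 2 decimals by the authors. As these are no counts, count models were not applied.

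Genes with at least 1 FPKM in at least 3 of 6 samples were compared on log2(FPKM + 1) with limma 3.58.1 (R 4.3.3), with variances moderated across genes along a trend with the mean. Tests were two-sided with Benjamini-Hochberg adjustment over all genes tested and a threshold of 0.05. The pseudocount understates differences of low genes. The fit was tested on simulated data. An exact permutation test of 3 against 3 cannot go below 0.1, so none was used. Intervals are 95% per gene, unadjusted. Alternatives were a pseudocount of 0.1, no filter, quantile normalization, median-ratio scaling, no variance trend, array quality weights and leaving out each mouse.

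The members and gene lists were chosen with earlier results of these data known, and lists are described by counts and medians without a test of the list. All 10 members were named, as were all genes past the threshold from the lists of CC ligands, receptors, signalling, cytokine, NF-kB and chemokine-modifying genes, and otherwise up to 3 genes with the smallest p-values. Low or lineage-defining genes such as Ccr3, Ccr6, Ackr2, Il1b, Ifng, Epx, Cd3e, Cd8b1, Ly6g, Car1, Csf1r and Jchain were named outside this rule, after their values were seen. Read totals were not used here. Depth was estimated from 31 to 56 genes per sample that were above 0 in 1 sample and had a transcript under 1500 bases, taking their typical value as 1 read, and is approximate. Numbers of reads per gene follow from it and the longest coding transcript in GENCODE M21, and cover counting error only. Values of some listed genes are not reported here.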

Additional observations from a re-analysis of the deposited data

How the results depend on the processing

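With 3 mice a group the calls depended on single mice. The 1069 genes that differed over the whole table became 608 with no filter, 1737 with quantile normalization, 1713 with median-ratio scaling and 7126 with array quality weights, and ranged from 51 to 4018 when 1 mouse was left out. The count of called CC chemokines, 1 of 8, became 0 of 10 with no filter and 6 with array quality weights, and ranged from 0 to 6 when 1 mouse was left out. It was 1, Ccl5, with a pseudocount of 0.1, quantile normalization, median-ratio scaling and no variance trend. The count of called Ccr receptors, 1, became 0 with no filter and ranged from 0 to 1 without single mice. Of 8 tested members, Ccl20 changed sign, to 0.02 without BBR mouse 1 and 0.07 without BBR mouse 2 (range -0.85 to 0.07 without single mice), and the other 7 kept their direction in all fits. Outside the members, Ccl9 changed from 0.06 to -0.07 with quantile normalization, -0.30 with array quality weights, -0.15 without BBR mouse 3 and -0.02 without SASP mouse 2 (range -0.15 to 0.20). Ackr1 changed from 0.09 to -0.06 with quantile normalization, -0.17 with array quality weights, -0.06 without BBR mouse 3 and -0.08 without SASP mouse 1 (range -0.08 to 0.18). Over 35 genes and all alternatives, 95 of 414 values lost a call, 19 gained 1 and 10 changed sign. Values that changed sign were counted only as such. Among them Ccl9 with array quality weights also passed the threshold (-0.30, limma adjusted p = 0.0441). The cause of these changes was not tested. Fits without a mouse have fewer samples, and the fit with no filter adjusts over 18260 genes. Depth limits Ccl3 and Ccl4, with at most about 5 reads per mouse. No paired analysis was possible because the labels give the mice no shared replicate numbers.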

Other observations

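Some B cell and lymphoid tissue genes were higher in SASP mice 1 and 3 than in SASP mouse 2 and in all BBR mice. They were identified after their values were seen, and the pattern was not tested. Ccl19, a chemokine of lymphoid stroma that acts on Ccr7, was listed at 6.64, 0 and 4.77 FPKM in SASP mice 1, 2 and 3 and at 0 in all BBR mice. Ccr7, its receptor on naive lymphocytes and dendritic cells, was at 0.92, 0.21 and 0.54 FPKM in SASP and 0.17 to 0.28 FPKM in BBR mice. The B cell surface gene Ms4a1 was at 3.95, 0.43 and 1.92 FPKM in SASP and 0.14 to 0.73 FPKM in BBR mice. The B cell receptor subunit Cd79a was at 13.35, 2.32 and 7.10 FPKM in SASP and 0.05 to 1.56 FPKM in BBR mice (-1.97, limma adjusted p = 0.0716). Its partner Cd79b was at 6.66, 1.42 and 2.95 against 0.18 to 0.56 FPKM (-1.63, limma adjusted p = 0.0489). It passed the filter through the SASP mice alone, so the call is no independent support, and it was lost without BBR mouse 1 (0.111) or 2 (0.103), with no filter (0.0811) and with no variance trend (0.0511). Without a SASP mouse Cd79b was below the filter. The whole list of 8 B cell and plasma cell markers had 4 tested, with 1 difference above 0 and 3 below, and its plasma cell genes did not share the pattern. Tnfrsf17 was at 0.49, 0.69 and 0.14 FPKM in BBR and 0.07 FPKM in each SASP mouse, Derl3 at 0.36 to 1.06 against 0.56 to 0.73 FPKM, Mzb1 differed by -0.02 (adjusted p = 0.978) and Jchain by 1.2 (0.273). Ccr6, the Ccl20 receptor that B cells also carry, had the same order among the SASP mice, at 1.09, 0.21 and 0.67 FPKM. The pattern was not particular to B cell and lymphoid tissue genes. The pan-leukocyte gene Ptprc was at 6.80, 2.67 and 4.51 FPKM in SASP and 1.84 to 3.32 FPKM in BBR mice. Coro1a, Cd52, Cd53, Arhgdib, Lcp1 and the receptor gene Ccrl2 shared the pattern, while the pan-leukocyte genes Laptm5 and Cytip did not.

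Ccl22 and Ccl24, ligands of dendritic cells and macrophages, lay below the filter with groups apart in opposite directions. Ccl22 was at 0.54, 0.30 and 0.44 FPKM under BBR, against 0.94, 0.68 and 0.89 FPKM under SASP. Ccl24, a second eotaxin, was at 0.41, 0.62 and 0.13 FPKM under BBR, against 0.06, 0.04 and 0.12 FPKM under SASP. Both were identified after their values were seen and were not tested.

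Differences were above 0 in 6 of 6 tested endothelial markers and 8 of 8 tested smooth muscle markers, with medians of 0.61 and 1.34. Over all 12072 genes tested, 7337 were above 0 and 4735 below, with a median of 0.10. Emcn, an endothelial sialomucin, was higher under BBR (0.83, limma adjusted p = 0.0351), and its call was lost with no filter (0.063) and on leaving out BBR mouse 1 (0.0883), BBR mouse 2 (0.0955), SASP mouse 1 (0.139) or SASP mouse 3 (0.136). The summed level of 8 smooth muscle markers was 2773 to 6579 FPKM in BBR and 702 to 2211 FPKM in SASP mice, with 0 genes called and 6 at an unadjusted p under 0.05. Of 8 tested pan-leukocyte markers 7 had differences below 0, with 0 past the threshold in limma and 5 at an unadjusted p under 0.05. Their summed level was 26.4 to 42.5 against 39.8 to 87.6 FPKM. Of all 12072 genes tested, 2224 were higher and 1613 lower at an unadjusted p under 0.05.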
